A study of Mus musculus with 27 samples.

Results

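The 6 genes described here are Trem1, Trem2, Trem3, Tyrobp, Cd300a and Cd300lf, taken by gene name from the 54532 genes of the deposited count table. They encode myeloid cell surface receptors of the TREM and CD300 families and the signalling adaptor that many of them use. RNA was sequenced from mixed glia, primary cultures grown from the cortex of C57BL/6 mouse pups aged 3 to 6 days and treated for 24 h at 14 days in vitro. Astrocytes, microglia and cells of the oligodendrocyte line can all be present in such cultures, and the labels name no purification of one type. The 27 libraries fall into 2 experiments, each with its own untreated group, and 9 groups of 3 libraries. In experiment 1, besides untreated cultures, LPS (lipopolysaccharide from bacterial walls, 100 ng/mL) was given alone, with bryostatin (50 nM), with interferon gamma (IFN-gamma, 20 ng/mL), or with both. In experiment 2, besides untreated cultures, glia received bryostatin (50 nM), interleukin 4 (IL-4, 20 ng/mL) or the 2 agents at once. Bryostatin-1 is a natural product that binds protein kinase C, and the comparisons ask how it changes resting and stimulated glia.

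TREM1, TREM2 and TREM3 carry almost no signalling tail of their own. They pair in the membrane with TYROBP, also called DAP12, whose ITAM motif is phosphorylated on ligand binding and recruits the kinase SYK. TREM1 is known as an amplifier of innate inflammation, whereas TREM2 is a microglial receptor for lipids and lipoproteins that supports phagocytosis and survival. CD300A and CD300LF bind membrane lipids such as phosphatidylserine and carry ITIM motifs, which recruit phosphatases that oppose ITAM signals.

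Trem1, Trem3 and Trem2 lie in this order on the plus strand of mouse chromosome 17 (GRCm38). Trem1 spans chr17:48232768-48246924, Trem3 spans chr17:48247777-48258841 and Trem2 spans chr17:48346401-48354147. Trem1 and Trem3 are separated by 852 bases, and Trem3 and Trem2 by 87559 bases. Cd300a, at chr11:114890041-114904654 on the plus strand, and Cd300lf, at chr11:115116214-115133992 on the minus strand, lie 211559 bases apart in the CD300 cluster. Tyrobp spans chr7:30413760-30417585 on the plus strand. Cd300lf lies inside Rab37, a gene of the opposite strand with which it shares 0 exon bases. The libraries were not strand-specific, so reads of overlapping transcripts on the 2 strands cannot be told apart there. Rab37 group means lay between 0.4 and 0.723 CPM (library-scaled counts, defined below), under those of Cd300lf in every group.

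Promoters are shown for the 4 receptors that had an entry in the RefSeq table, because these genes went different ways under the same stimuli. Each line gives the 250 bases before the RefSeq start on the gene's own strand, 5′ to 3′, and capitals mark matches to the motifs named after the sequences.
Trem1: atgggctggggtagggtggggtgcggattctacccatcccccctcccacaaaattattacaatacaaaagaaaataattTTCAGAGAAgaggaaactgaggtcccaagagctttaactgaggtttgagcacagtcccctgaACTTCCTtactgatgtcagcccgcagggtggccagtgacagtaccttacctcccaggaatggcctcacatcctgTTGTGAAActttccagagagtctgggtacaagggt
Trem2: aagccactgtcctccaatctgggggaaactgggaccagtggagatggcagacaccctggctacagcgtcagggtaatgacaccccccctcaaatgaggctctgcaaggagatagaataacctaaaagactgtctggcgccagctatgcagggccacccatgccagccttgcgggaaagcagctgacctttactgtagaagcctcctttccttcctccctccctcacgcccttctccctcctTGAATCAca
Cd300a: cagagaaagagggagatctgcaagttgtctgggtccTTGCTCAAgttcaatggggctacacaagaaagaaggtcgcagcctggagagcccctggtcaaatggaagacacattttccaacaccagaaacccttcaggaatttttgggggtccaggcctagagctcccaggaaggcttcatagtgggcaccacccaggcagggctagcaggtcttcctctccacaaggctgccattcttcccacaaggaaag
Cd300lf: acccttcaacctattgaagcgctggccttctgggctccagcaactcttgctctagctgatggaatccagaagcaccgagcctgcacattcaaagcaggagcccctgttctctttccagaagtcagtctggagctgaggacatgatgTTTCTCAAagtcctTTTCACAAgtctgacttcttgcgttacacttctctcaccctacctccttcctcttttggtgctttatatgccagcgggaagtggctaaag
The windows are chr17:48232489-48232738 for Trem1, chr17:48346151-48346400 for Trem2, chr11:114889791-114890040 for Cd300a and chr11:115133993-115134242 on the minus strand for Cd300lf, all on GRCm38.p6 from RefSeq. Both strands were searched for an AP-1 motif (TGANTCA), a PU.1 and ETS motif (AGGAAGT), an IRF motif (GAAA, 2 bases of any kind, GAAA), a STAT GAS motif (TTCNNNGAA), a STAT6 motif (TTC, 4 bases of any kind, GAA), an NF-kB motif (GGGA, 2 bases of any kind, TTCC) and a C/EBP motif (TTGNGNAA). The Trem1 window held a GAS match at bases -171 to -163 from the start, an ETS match at -109 to -103 and a C/EBP match at -35 to -28. The Trem2 window held 1 match, an AP-1 match at -9 to -3. C/EBP matches stood once in the Cd300a window, at -214 to -207, and at 2 places in the Cd300lf window, at -104 to -97 and -90 to -83. Among 32536 mouse promoter windows of the same length, 11.8% held the C/EBP motif, 7.7% the ETS motif, 7.04% the GAS motif and 6.73% the AP-1 motif. The IRF (2.98% of windows), STAT6 (5.89%) and NF-kB (1.21%) letters were not in the 4 windows, which says nothing on the binding of those factors.

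Levels are in CPM, a gene's counts divided by the TMM-scaled total of its library and brought to the usual common scale. Library totals ran from 17230058 to 28687281 counts, so that 3 counts equal 0.105 to 0.174 CPM. A gene was called changed at a Benjamini-Hochberg adjusted p under 0.05 in edgeR's quasi-likelihood test, adjusted over all 16073 tested genes of experiment 1 or 15604 of experiment 2. Changes are log2 fold changes ± SE. A p-value here rests on an estimate of the spread among libraries that all groups of an experiment share. Nothing in the labels ties a replicate to its own culture or animal, so that spread may be technical.

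In each experiment the untreated library labelled replicate 1 stands apart from the others of its label. Over the genes tested in both experiments, untreated replicate 1 of experiment 1 had a correlation of 0.991 with each of replicates 2 and 3 of experiment 2. With those of its own group the correlation was 0.965 and 0.966. Untreated replicate 1 of experiment 2 had a correlation of 0.979 and 0.97 with replicates 2 and 3 of experiment 1, and of 0.956 and 0.947 with its own. Trem1 differed along the same lines. Whether the labels of these 2 libraries were exchanged between the experiments was not tested. The labels were kept, and every value against untreated glia carries this doubt. The fit of an experiment shares its estimate of spread over all groups, so these libraries also bear on calls between treated groups. Without both, bryostatin added to LPS had 2148 genes called in place of 1108. Of the 73 member results, 70 then kept their call status and 3 gained a call. For the members, values against untreated glia are also given without these 2 libraries where that changed a call, and for some values that moved. Member values between treated groups are given with them in the fit. For the lists of other genes this was done only in part. Microglia were present in all groups by their markers: the summed level of 16 microglial genes was 2360 to 2800 CPM in untreated glia of experiment 1 and 2900 to 3630 CPM in those of experiment 2. Of the neutrophil markers, Mpo, Elane, Ngp and S100a9 had 0 counts in all 27 libraries, as did the mast cell genes Fcer1a and Tpsb2 and the lymphocyte genes Cd3e and Ncr1. Other genes of these lists did have counts. The 5 T or NK cell markers summed to 1.08 to 1.39 CPM with LPS and bryostatin, against 0.273 to 0.522 CPM with LPS. The 1 of them that was tested was called higher there (log2 change 1.69).

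**Figure D1:**
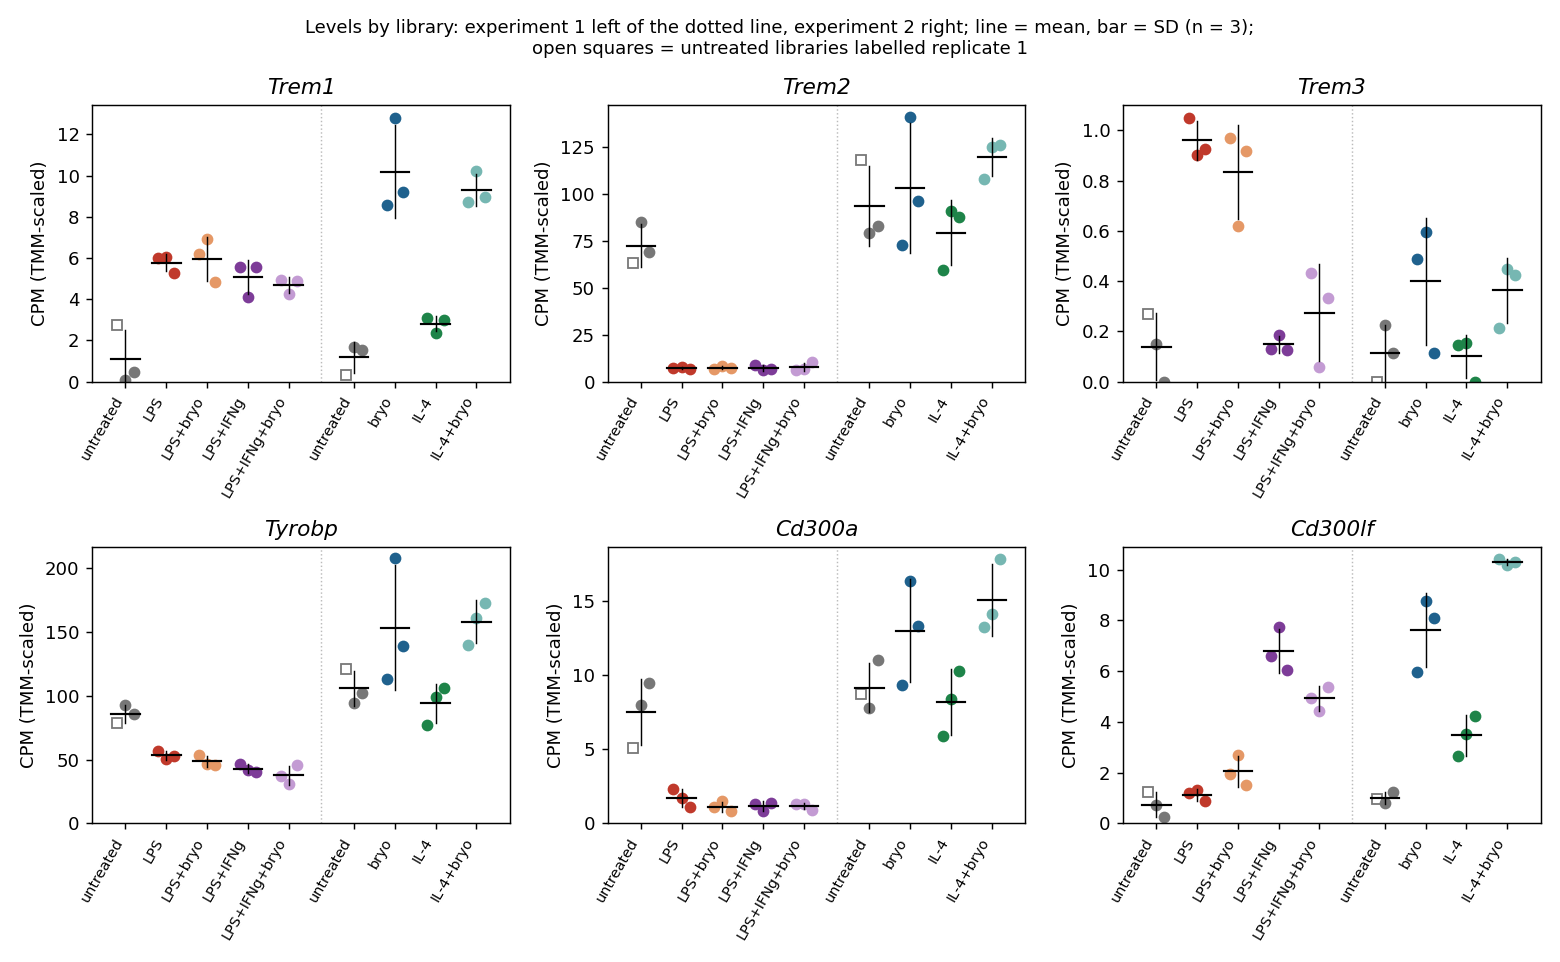
Level of each of the 6 genes in CPM (vertical axes start at 0) by treatment group, with experiment 1 left and experiment 2 right of the dotted line. Points are libraries, horizontal lines are means and bars are SD over 3 libraries. Open squares are the untreated libraries labelled replicate 1. Trem2 fell from 72.6 CPM to 7.21 CPM with LPS, while Trem1 reached 10.2 CPM with bryostatin alone.

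Without stimulus, Tyrobp and Trem2 were the most abundant members and Trem3 was close to the limit of detection. Levels between genes are compared per kb of gene length. Tyrobp stood at 129 ± 10.6 CPM per kb in untreated glia of experiment 1 and Trem2 at 14.7 ± 2.3 CPM per kb. Cd300a followed with 1.58 ± 0.467 CPM per kb, ahead of Trem1 with 0.368 ± 0.475, Cd300lf with 0.143 ± 0.0966 and Trem3 with 0.14 ± 0.135. The per-kb ranges of Trem1, Cd300lf and Trem3 overlapped in these libraries, so their order is not resolved. Trem3 had 8 counts in all over these 3 libraries and 6 over the 3 untreated libraries of experiment 2.

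LPS split the TREM receptors. Trem1 and Trem3 rose, Trem2 and Cd300a fell to a small part of their level, Tyrobp fell less, and Cd300lf was not called. Of the 6 members, 2 were called higher and 3 lower, where 38.4% of all genes tested were called in this comparison (19.5% higher and 18.8% lower). The median log2 change of the 6 members was -0.02 and that of all genes -0.0078.

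Trem2 showed the clearest change. It was measured at 63.2, 85.2 and 69.3 CPM in untreated glia and at 7.43, 7.64 and 6.55 CPM with LPS. No LPS library came near an untreated one. The change was -3.33 ± 0.18 (adjusted p = 3.6e-10, 10.1-fold lower), and it was -3.42 without untreated replicate 1. Tyrobp, the shared adaptor, stood at 78.9, 93.1 and 85.8 CPM in untreated glia and at 57, 50.2 and 52.8 CPM with LPS. All LPS libraries were lower than all untreated ones, with a change of -0.69 ± 0.12 (adjusted p = 0.00022, 1.61-fold lower). Cd300a, the ITIM receptor, had 5.09, 7.99 and 9.44 CPM in untreated glia and 2.31, 1.71 and 1.09 CPM with LPS. Here too the groups did not overlap, and the change was -2.14 ± 0.31 (adjusted p = 3.9e-05).

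Trem1 went the other way, but its untreated libraries were far apart, at 2.73, 0.0987 and 0.477 CPM. With LPS it stood at 6, 6.03 and 5.29 CPM, above every untreated library. The change was 2.42 ± 0.56 (adjusted p = 0.0034), and 4.28 (adjusted p = 9.2e-09) without untreated replicate 1, the highest of the 3. With only these 2 groups in the fit the adjusted p was 0.071. Trem3, a mouse activating receptor next to Trem1, had 5, 3 and 0 counts in untreated glia and 19, 19 and 17 counts with LPS. The ranges did not overlap, and the change was 2.77 ± 0.62 (adjusted p = 0.002), and 3.6 (adjusted p = 0.00058) without untreated replicate 1. Cd300lf stood at 1.23, 0.74 and 0.238 CPM in untreated glia and at 1.21, 1.33 and 0.873 CPM with LPS. These ranges overlapped through untreated replicate 1, and the change was 0.65 ± 0.4 (adjusted p = 0.22); without that library it was 1.23 (adjusted p = 0.023).

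The summed level of the 16 microglial markers moved too, from 2360 to 2800 CPM in untreated glia to 1750 to 1860 CPM with LPS. Of the 16, 10 were called lower, such as P2ry12 at -3.2 ± 0.31 and Fcrls at -2.86 ± 0.17, and 4 higher, such as Itgam at 1.49 ± 0.14 and Aif1 at 1.32 ± 0.12. In such bulk samples fewer cells of a type and less RNA per cell cannot be told apart. The summed level of 6 monocyte markers rose from 6.86 to 11.6 CPM in untreated glia to 17.8 to 23 CPM with LPS, with 2 of the 3 tested called higher, such as Plac8, while Chil3 had 0 counts in experiment 1. The summed level of 10 neutrophil markers was 0 to 0.161 CPM in untreated glia and 3.85 to 5.89 CPM with LPS, nearly all from Camp (4.12 ± 0.931 CPM). The part of these cell types in the members' changes was not tested.

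IFN-gamma given with LPS set Cd300lf apart. Against LPS alone Cd300lf rose and Trem3 fell, and Trem1, Trem2, Cd300a and Tyrobp were not called: 2 of 6 members were called, where 36.0% of all genes were (19.2% higher and 16.8% lower). Cd300lf reached 6.58, 7.74 and 6.05 CPM with LPS and IFN-gamma, against 1.21, 1.33 and 0.873 CPM with LPS. Every library with IFN-gamma was higher, by 2.57 ± 0.34 (adjusted p = 2.4e-05, 5.92-fold). Trem3 fell to 2, 3 and 2 counts, a change of -2.64 ± 0.64 (adjusted p = 0.0042), which brought it back to the untreated range. Tyrobp stood at 46.8, 41.5 and 40.3 CPM, below all LPS libraries, but its change of -0.32 ± 0.12 did not pass (adjusted p = 0.052), and it passed in 5 alternative fits, for example with DESeq2 (adjusted p = 0.044). Trem2, at 9.1, 6.24 and 6.88 CPM, overlapped with LPS alone, with a change of 0.037 (95% interval -0.37 to 0.44).

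Against untreated glia, LPS with IFN-gamma changed 5 of 6 members, where 58.1% of all genes were called (29.5% higher and 28.6% lower). Trem2 changed by -3.29 ± 0.19, Cd300a by -2.68 ± 0.33 and Tyrobp by -1 ± 0.12. Higher were Cd300lf, by 3.21 ± 0.36 (3.79 without untreated replicate 1), and Trem1, by 2.23 ± 0.57, which was 4.09 without untreated replicate 1 and not called with only the compared groups in the fit (adjusted p = 0.066). Trem3 was not called (0.13 ± 0.84, adjusted p = 0.9), also without that library (0.96, adjusted p = 0.43). This comparison, that of LPS and that of LPS with bryostatin share their untreated libraries. Microglial markers summed to 1430 to 1600 CPM with LPS and IFN-gamma, below the LPS range, and dendritic cell markers to 16.8 to 17.3 CPM, above the LPS range of 8.31 to 9.5 CPM. Border macrophage markers fell from 28.8 to 32.2 CPM with LPS to 4.97 to 5.8 CPM, with 4 of 4 tested called lower. Oligodendrocyte lineage markers went from 523 to 560 CPM to 217 to 231 CPM, with 3 of 7 tested called lower. The sum of the neuron markers went from 48.4 to 52.9 CPM to 101 to 117 CPM. Of the 3 neuron markers tested, 1 was called higher and 0 lower, and their median log2 change was -0.54. Without untreated replicate 1 in the fit, 1 was higher and 1 lower. The part of these cell types in the rise of Cd300lf was not tested.

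Bryostatin added to LPS changed no member by the test: 0 of 6 were called in edgeR's quasi-likelihood test, 1 had an unadjusted p under 0.05, and DESeq2 called 0, where 6.89% of all genes were called (3.35% higher and 3.55% lower). Cd300lf was the one with the lowest p. It stood at 1.94, 2.69 and 1.51 CPM with LPS and bryostatin, above all 3 LPS libraries, with a change of 0.84 ± 0.36 (adjusted p = 0.21). The 95% intervals limit what could have been missed. For Trem2, at 6.67, 8.16 and 7.13 CPM, the interval ran from -0.38 to 0.42, and for Tyrobp from -0.39 to 0.12. For Trem1, at 6.18, 6.92 and 4.81 CPM, the interval of -0.99 to 1.08 leaves room for changes of 2-fold. The spread behind this interval is shared by all groups of experiment 1. It takes in the untreated libraries, at 2.73, 0.0987 and 0.477 CPM. Over the same libraries, 8 of 16 microglial markers were lower with bryostatin, and their sum of 1280 to 1440 CPM lay below that of LPS alone.

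Measured against untreated glia, LPS with bryostatin gave calls for all 6 members, 3 higher and 3 lower, where 42.1% of all genes were called (22.2% higher and 19.9% lower). Cd300lf, not called with LPS alone, was called here (1.49 ± 0.38, adjusted p = 0.0049, and 2.06 without untreated replicate 1), though not with only the compared groups in the fit (adjusted p = 0.065). Trem1 changed by 2.47 ± 0.56 (4.33 without untreated replicate 1; adjusted p = 0.067 with only the compared groups). That Cd300lf passed here and not with LPS alone is no test of bryostatin, for which the direct comparison above stands.

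With IFN-gamma also present, bryostatin again changed 0 of 6 members in edgeR's test, none had an unadjusted p under 0.05, and DESeq2 called 0, where 3.38% of all genes were called (1.80% higher and 1.58% lower). Cd300lf stood at 4.95, 4.43 and 5.39 CPM, below all libraries of LPS and IFN-gamma alone, with a change of -0.46 ± 0.31 (adjusted p = 0.54). Between the settings, bryostatin's effect on Cd300lf differed by -1.3 ± 0.47 (LPS and IFN-gamma minus LPS, adjusted p = 0.55), which is not a call. None of the 6 members was called in this test of the difference, 1 had an unadjusted p under 0.05, and DESeq2 called 0, where 0.118% of all genes were called (0.0684% higher and 0.0498% lower). The contrast of IFN-gamma in the presence of bryostatin (LPS, IFN-gamma and bryostatin against LPS and bryostatin) called 3 of 6 members, where 36.9% of all genes were called (18.9% higher and 17.9% lower). Cd300lf was higher by 1.26 ± 0.33 (adjusted p = 0.0062), Trem3 lower by a log2 change of -1.6 ± 0.58 (adjusted p = 0.041) and Tyrobp by -0.37 ± 0.12 (adjusted p = 0.027). Tyrobp and Trem3 each lost their call without replicate 2 of LPS, IFN-gamma and bryostatin (adjusted p = 0.14 and 0.17) and without replicate 1 of LPS with bryostatin (adjusted p = 0.12 and 0.11). Without any other single library of these groups, Trem3 had an adjusted p of 0.05 to 0.1 in 3 of the 4 fits and Tyrobp one of 0.07 without replicate 1 of LPS, IFN-gamma and bryostatin.

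Bryostatin given alone, in experiment 2, raised Trem1 and Cd300lf and left the microglial receptor Trem2 without a call. Of the 5 members tested, 2 were called higher and 0 lower, where 3.62% of all genes were called (2.11% higher and 1.51% lower); Trem3 had too few counts to test. Trem1 rose from 0.316, 1.69 and 1.54 CPM to 8.59, 12.8 and 9.19 CPM. All treated libraries were well above the untreated ones, with a change of 3.11 ± 0.4 (adjusted p = 0.0026, 8.66-fold), and of 2.64 (adjusted p = 0.00025) without untreated replicate 1, the lowest. Cd300lf rose from 0.948, 0.787 and 1.25 CPM to 5.98, 8.75 and 8.11 CPM. These groups were as clearly apart, with a change of 2.93 ± 0.24 (adjusted p = 0.00022, 7.6-fold). With only these 2 groups in the fit, Trem1 kept its value and lost its call (adjusted p = 0.13).

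Trem2 stood at 118, 79.5 and 83.2 CPM in untreated glia of experiment 2 and at 72.8, 141 and 96.5 CPM with bryostatin. The ranges overlapped widely, with a change of 0.14 ± 0.24 (95% interval -0.39 to 0.68), and of 0.33 without untreated replicate 1, also not called. Tyrobp (0.54 ± 0.21, adjusted p = 0.18) and Cd300a (0.5 ± 0.25, adjusted p = 0.3) overlapped with untreated glia and were not called, and in both the highest library was bryostatin replicate 2, at 208 CPM for Tyrobp and 16.3 CPM for Cd300a. Trem3 had 9, 11 and 2 counts with bryostatin and 0, 4 and 2 counts without. The microglial markers summed to 2730 to 4140 CPM with bryostatin and overlapped with untreated glia, with 1 of 16 called, Itgam at 1.27 ± 0.14. Border macrophage markers summed to 135 to 161 CPM, against 60.5 to 80.5 CPM in untreated glia, with 2 of 5 tested called higher (Mrc1 and Pf4), and 1 without untreated replicate 1. Astrocyte markers summed to 8350 to 10500 CPM, below the 12500 to 17400 CPM of untreated glia. Of the 9 tested, 5 were called lower and 1 higher, and 2 lower and 1 higher without untreated replicate 1. The part of these cell types in the rises of Trem1 and Cd300lf was not tested.

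IL-4 raised Cd300lf alone among the 5 members tested, where 0.583% of all genes were called (0.500% higher and 0.0833% lower). Cd300lf reached 2.65, 3.52 and 4.24 CPM, all above the untreated range, with a change of 1.79 ± 0.25 (adjusted p = 0.0043); with only these 2 groups in the fit the adjusted p was 0.13. Trem1 stood at 3.09, 2.38 and 2.98 CPM, also above every untreated library, but its change of 1.26 ± 0.41 was not called (adjusted p = 0.39) and was 0.8 without untreated replicate 1. Trem2 (-0.24 ± 0.24), Tyrobp (-0.17 ± 0.21) and Cd300a (-0.16 ± 0.25) overlapped with untreated glia. Markers listed for several other cell types moved with IL-4. The dendritic list summed to 22.6 to 39.8 CPM against 8.31 to 9.56 CPM, mainly through Itgax (23.2 ± 8.15 CPM), and the monocyte list to 18.9 to 44.8 CPM against 6.27 to 14.2 CPM, mainly through Chil3 (19.9 ± 11.7 CPM). Border macrophage markers summed to 126 to 196 CPM against 60.5 to 80.5 CPM, with 1 of 5 tested called higher. Endothelial markers summed to 83.7 to 116 CPM against 31.9 to 42.3 CPM, with 2 of 3 tested called higher. The part of such cells in the rise of Cd300lf was not tested.

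On top of IL-4, bryostatin left all 5 members tested higher in all 3 libraries than in any IL-4 library, as were 20.1% of all genes tested. Trem3, with too few counts to test, had 6, 8 and 8 counts with both agents and 3, 3 and 0 counts with IL-4. Of the 5 members tested 2 were called, both higher, where 4.13% of all genes were called (2.70% higher and 1.42% lower). Cd300lf rose to 10.4, 10.2 and 10.3 CPM, a change of 1.57 ± 0.22 (adjusted p = 0.0031). Trem1 rose to 8.74, 10.2 and 8.95 CPM, by 1.72 ± 0.36 (adjusted p = 0.023). The Trem1 call was lost on leaving out any one of the 6 libraries (log2 change 1.61 to 1.79, adjusted p = 0.069 to 0.12). Tyrobp went from 77.1, 99.1 and 106 CPM to 140, 161 and 173 CPM, which did not pass (0.75 ± 0.21, adjusted p = 0.073). Cd300a went from 5.88, 8.38 and 10.3 CPM to 13.2, 14.1 and 17.8 CPM (0.88 ± 0.25, adjusted p = 0.077). Trem2 went from 59.7, 90.8 and 88 CPM to 108, 125 and 126 CPM (0.59 ± 0.24, adjusted p = 0.24). Tyrobp and Cd300a passed with DESeq2, and all 5 passed with only these 2 groups in the fit. The microglial markers summed to 3450 to 4370 CPM with both agents and 2480 to 3520 CPM with IL-4, ranges that overlapped. Border macrophage markers went without overlap from 126 to 196 CPM with IL-4 to 340 to 493 CPM with both agents, with 2 of 5 tested called higher. The part of these cells in the members' levels was not tested.

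IL-4 added to bryostatin called 0 of 5 members in edgeR's test, 0 had an unadjusted p under 0.05, and DESeq2 called 0, where 0.910% of all genes were called (0.775% higher and 0.135% lower). Cd300lf had the lowest p there (0.44 ± 0.21, adjusted p = 1), with all libraries of both agents above all of bryostatin alone. In order of its level in experiment 2, Cd300lf was lowest in untreated glia (0.996 ± 0.236 CPM), then IL-4 (3.47 ± 0.797), bryostatin (7.61 ± 1.45) and both (10.3 ± 0.104), and the last 2 are the neighbours without a called difference, the step from IL-4 to bryostatin being untested. For Trem1 the order was untreated (1.18 ± 0.752 CPM), IL-4 (2.82 ± 0.381), both (9.31 ± 0.811) and bryostatin (10.2 ± 2.28), with no called difference between the first pair or the last pair. The log2 effect of bryostatin with IL-4 minus that without was -1.35 ± 0.32 for Cd300lf and -1.39 ± 0.53 for Trem1 (adjusted p = 0.94 for each). Neither is a call: of 5 members tested 0 were called, 2 had an unadjusted p under 0.05, DESeq2 called 0, and 0 of all 15604 genes were called, so 0% of genes.

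**Figure D2:**
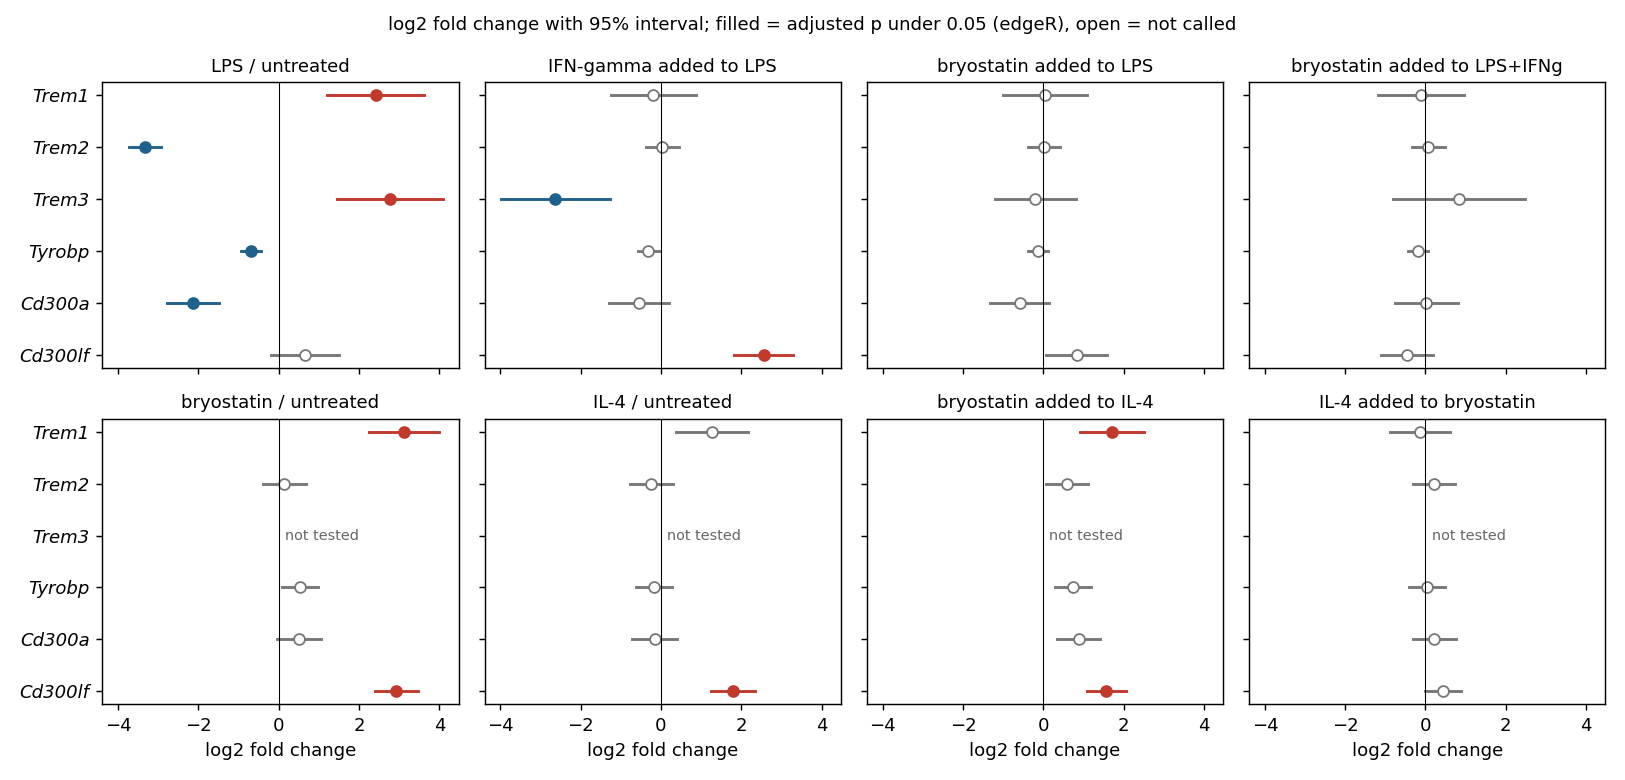
log2 fold change of each member (horizontal axes) with its 95% interval in 8 comparisons. Filled points passed an adjusted p of 0.05 in edgeR's quasi-likelihood test, red higher and blue lower, and open points did not. LPS moved Trem2 by -3.33 and Trem1 by 2.42, and the panels of bryostatin added to LPS, with or without IFN-gamma, hold no filled point.

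The makeup of the receptor set relative to its adaptor was described by dividing each receptor by Tyrobp in the same library, both per kb of deposited gene length. Trem2 amounted to 10.8, 12.3 and 10.9 percent of Tyrobp in untreated glia of experiment 1 and to 1.76, 2.05 and 1.67 percent with LPS. In the other LPS groups its mean share was 2.05% to 2.77%. Trem1 went from 0.306% ± 0.406 of Tyrobp in untreated glia to 2.42% ± 0.23 with LPS. In experiment 2, Trem2 was 11.8% ± 1.16 of Tyrobp in untreated glia, 9.05% ± 0.351 with bryostatin, 11.3% ± 0.966 with IL-4 and 10.2% ± 0.333 with both. Trem1 was 1.51% ± 0.163 of Tyrobp with bryostatin against 0.264% ± 0.181 without. Cd300lf rose from 0.114% ± 0.0837 of Tyrobp in untreated glia to 2.06% ± 0.314 with LPS and IFN-gamma.

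The order of Trem1 and Trem2 per kb depends on the length used. By deposited length Trem1 exceeded Trem2 with LPS, but the deposited Trem2 length of 4946 bases covers all annotated exons, and its 2 protein-coding transcripts average 1072 bases. With protein-coding transcript lengths, chosen after seeing the data, Trem2 was 7.33% ± 0.801 of Tyrobp with LPS and Trem1 2.48% ± 0.236, so Trem2 remained the higher. In untreated glia Trem2 was then 45.5% ± 3.48 of Tyrobp. Changes of 1 gene between groups do not depend on its length.

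**Figure D3:**
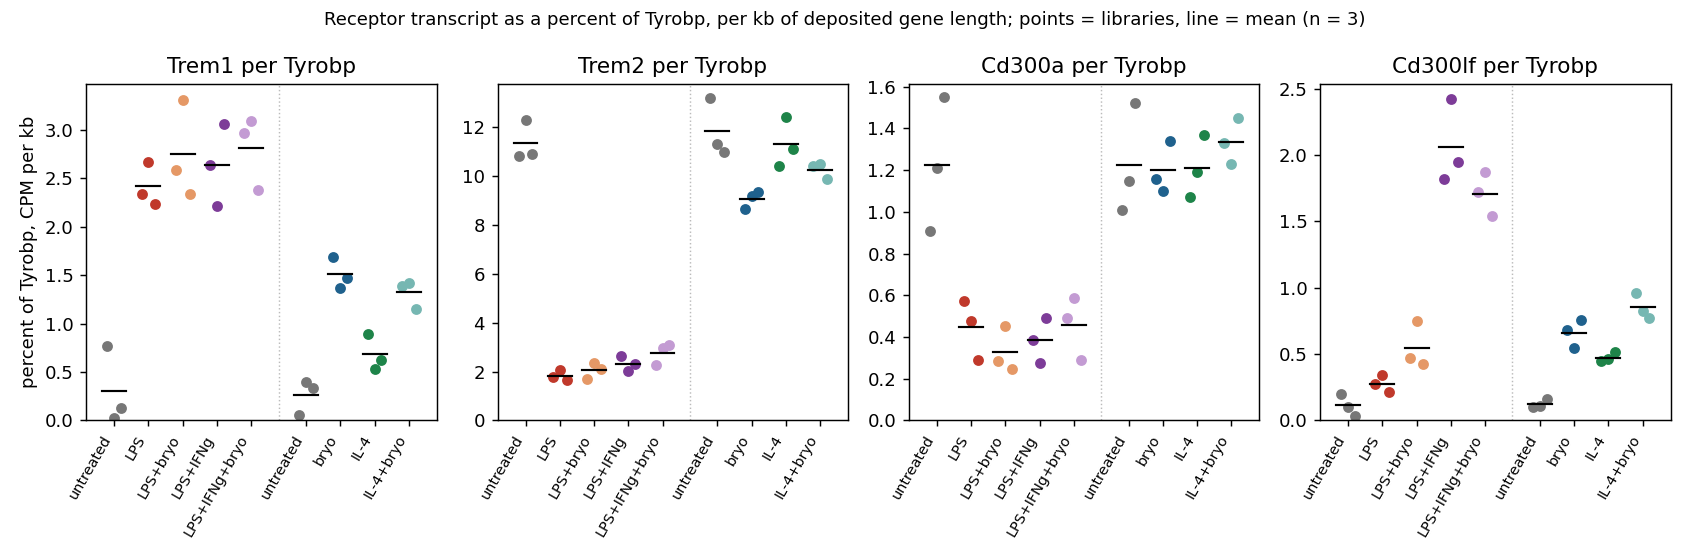
Each of 4 receptors as a percent of Tyrobp in the same library (vertical axes from 0, CPM per kb of deposited length) by treatment group, with experiment 1 left of the dotted line. Points are libraries and lines are means of 3. The Trem2 share is 11.3% in untreated glia and 1.83% with LPS, and Trem1 reaches 2.42% with LPS.

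Genes that act with these receptors moved unevenly with LPS, a comparison with calls for 38.4% of all genes (19.5% up, 18.8% down). Of 27 tested genes of the DAP12 and DAP10 pathway, 13 were called higher and 5 lower (median log2 change 0.25). Among them the PI3K adaptor Pik3ap1 rose by 1.95 ± 0.1 and Syk, the kinase that binds the DAP12 ITAM, by 1.72 ± 0.08, while the Ras activator Rasgrp3 changed by -2.56 ± 0.29. The ITIM list held ITIM receptors, phosphatases and other genes that oppose ITAM signals, not all with an ITIM, and left out Cd300a and Cd300lf. Of its 20 tested genes, 9 were higher and 3 lower (median 0.48). The largest changes were in the inhibitory receptors Pirb (4.44 ± 0.17), Siglece (4.06 ± 0.12), Pilra (3.33 ± 0.3) and Clec4a2 (2.7 ± 0.24). Of 9 tested other receptors that pair with DAP12, 6 were higher and 1 lower. The median of these 9 was 2.41 as fitted and 0.79 with the 2 genes at 0 counts in untreated glia set to a bound of 3 counts. Cd300e went from 0 counts in untreated glia to 72 counts over the 3 LPS libraries, Pilrb1 and its near copy Pilrb2 rose by 4.06 ± 0.31 each, with reads that may be split between the copies, and Cd300lb changed by -2.59 ± 0.41. Of 7 tested other TREM and CD300 genes, a list that shares Cd300e, Cd300lb and Cd300ld with the last, 3 were higher and 2 lower (median -0.47). Among TREM2 ligands, sheddases and MS4A genes, which lie in a cluster linked to soluble TREM2, 10 of 15 were higher and 1 lower (median 0.47). Ms4a4c rose by 7.71 ± 0.21, Ms4a4a by 3.87 ± 0.29, Ms4a6d by 3.45 ± 0.089 and Ms4a6b by 3.21 ± 0.1, where near copies again may share reads. Of 4 tested TREM1 ligand genes, 1 was higher (Hmgb1, 0.46 ± 0.091) and 1 lower (Actb, -0.3 ± 0.1).

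With IFN-gamma added to LPS, calls were made for 36.0% of all genes (19.2% up, 16.8% down). Of the 20 genes of the ITIM list, 9 were lower and 1 higher (median -0.36, against -0.0073 for all genes). Siglece changed by -3.59 ± 0.11, Pilra by -2.61 ± 0.29, Clec4a2 by -2.3 ± 0.24 and Cd33 by -2.04 ± 0.18. Cd300lf, which carries ITIM motifs as well, rose in this comparison. Of 9 other DAP12 receptors, 6 were lower, such as Cd300ld (-2.66 ± 0.3), and 2 higher, among them Klrk1 (5 counts with LPS, 76 with IFN-gamma added). Of the 27 DAP12 and DAP10 pathway genes, 9 were lower and 4 higher, with Rasgrp3 at -1.43 ± 0.35 and the adaptor Lcp2 at -1.2 ± 0.11; without untreated replicate 1 in the fit, 10 were lower and 7 higher. Of the MS4A and TREM2 partner list, 6 of 15 were lower and 2 higher. The heat shock genes Hspa1b (2.47 ± 0.11) and Hspa1a (2.09 ± 0.15), counted as TREM1 ligands and near copies of each other, rose. Other TREM and CD300 genes gave 2 higher and 3 lower of 7.

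With bryostatin added to LPS, calls in these lists were lower ones. Over all genes, 6.89% were called, 3.55% lower. Lower against LPS were 4 of 27 DAP12 and DAP10 pathway genes, including Blnk (-0.68 ± 0.14). So were 3 of 20 genes of the ITIM list, including Clec4a2 (-1.08 ± 0.22), and 0 of either list were higher. Without untreated replicate 1 in the fit, 7 of the 27 pathway genes were lower. Of the 20 genes of the ITIM list, 4 were then lower and 1 higher. Cd300e went from 72 to 10 counts over 3 libraries each (-2.79 ± 0.63, adjusted p = 0.017). With LPS and IFN-gamma, where bryostatin changed 3.38% of all genes, it lowered 4 of 15 genes of the TREM2 partner list, Ms4a4c (-1.03 ± 0.13), Ms4a7 (-0.88 ± 0.18), Ms4a6c (-0.56 ± 0.092) and Ms4a6b (-0.45 ± 0.09), and Hspa1a (-1.98 ± 0.15) and Hspa1b (-1.5 ± 0.11).

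In experiment 2 the calls in these lists were mostly rises. With bryostatin alone, where 3.62% of all genes were called, 4 of 27 DAP12 and DAP10 pathway genes rose (median of the list 0.32, of all genes 0.0048): Pik3cd by 0.81 ± 0.16, Lat2 by 0.8 ± 0.15, Syk by 0.7 ± 0.13 and Btk, a kinase downstream of SYK, by 0.7 ± 0.15. The ITIM list gave 4 rises among 20 genes: the inhibitory Fc receptor Fcgr2b (1.91 ± 0.18), Dok2 (1.74 ± 0.23), Pilra (1.71 ± 0.24) and Cd200r1 (1.53 ± 0.19). Other DAP12 receptors gave 3 rises among 8, Cd200r4 (1.41 ± 0.31), Clec5a (1.12 ± 0.2) and Cd300lb (0.91 ± 0.21), and 1 without untreated replicate 1, while of 5 other TREM and CD300 genes 2 rose, and 0 without that library. IL-4, with 0.583% of all genes called, raised 2 more CD300 genes beside Cd300lf, Cd300ld (2.25 ± 0.22) and Cd300lb (2.11 ± 0.21), of 5 tested. It also raised 4 of 20 genes of the ITIM list, such as Dok2 (2.44 ± 0.23) and Fcgr2b (2.01 ± 0.18). Bryostatin on top of IL-4, with 4.13% of all genes called, raised Cd300ld further (0.97 ± 0.2), as well as Treml2 (1.67 ± 0.32), and 4 of 20 genes of the ITIM list. The Src family kinase Fgr went from 113 to 18 counts (-2.81 ± 0.48), against 5 rises among the 27 DAP12 and DAP10 pathway genes. Without untreated replicate 1 in the fit there were 9 rises in that list, and 4 among the 5 other TREM and CD300 genes in place of 2.

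**Figure D4:**
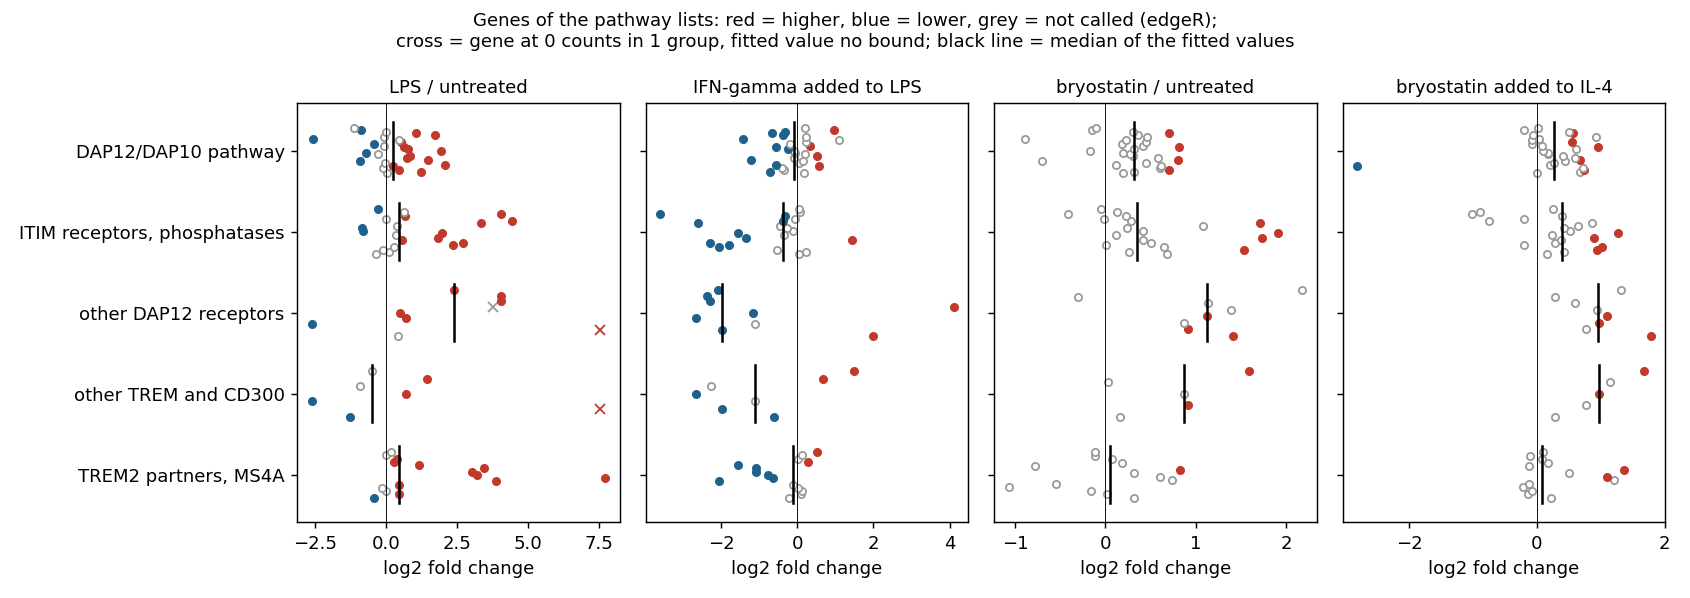
log2 fold change (horizontal axes, ranges differ between panels) of each tested gene in 5 lists of genes that work with the TREM and CD300 receptors. Red is called higher, blue lower and grey not called, crosses are genes at 0 counts in 1 group, and black lines are medians of the fitted values. The ITIM list has 9 higher and 3 lower genes with LPS, and 1 higher and 9 lower with IFN-gamma added to LPS.

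The genes whose log2 levels followed each member most closely over the 15 libraries of experiment 1 were found by Pearson's r among 13022 protein-coding genes, as a description. Libraries of 1 group share their treatment and are not independent points. The closest to Trem2 were Gpr34, a lipid-sensing receptor of microglia, Otud1 and Syap1, each with r = 0.98. Over the 12 libraries of experiment 2 their r was 0.3, -0.24 and -0.81. Tyrobp was followed by Bin2 (r = 0.98, and 0.3 in experiment 2) and Cd300a by Acat1 and Ccnb1 (r = 0.95). Also among the 5 closest to Cd300a were the astrocyte marker Gja1 and P2ry12, a microglial purine receptor (r = 0.94 each). In experiment 2 the r of Acat1, Ccnb1, Gja1 and P2ry12 with Cd300a was -0.44, 0.59, -0.69 and 0.41. Trem3 had Emilin2 (r = 0.94) and Pilra (r = 0.93), whose r in experiment 2 was 0.68 and 0.69. Trem1 had Tent4a, Sod3 and Susd6 (r = 0.95), whose r in experiment 2 was 0.59, -0.13 and 0.63. Cd300lf had Slc6a8, Cox15 and Sqle (r = 0.97), whose r in experiment 2 was 0.69, 0.19 and -0.76.

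Among the members themselves, Trem2 and Cd300a had r = 0.93 in experiment 1 and 0.81 in experiment 2, and Trem2 and Tyrobp 0.88 and 0.9. Trem1 and Trem2, with -0.87 in experiment 1, had 0.27 in experiment 2. Trem1 and Cd300lf had 0.57 over the 15 libraries and 0.91 over the 12. Trem1 and its neighbour Trem3 had 0.54 and 0.74, the latter with Trem3 near the limit of detection.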

How the data were processed

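Libraries were made from polyadenylated RNA without strand marking, per the labels' protocols. The submitters' processing notes name fastp, STAR, featureCounts and mm10; their versions are not given in the sources used here. Raw counts per gene, with gene lengths and positions, were deposited by the authors, and the positions equal those of GENCODE M21 for the 6 genes. Deposited FPKM values were not used.

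edgeR 4.0.16 under R 4.3.3 was run on these counts (filterByExpr over groups, minimum count of 10, TMM, robust quasi-likelihood F test), each experiment fitted with all its groups, in 11 pairs of groups and 2 differences of effects. The code was tested on simulated data. CPM divide counts by library total and TMM factor. The SE is the log2 change over the square root of F. The receptor to Tyrobp ratio is given in percent. DESeq2 1.42.0, other filters, scalings and samples were alternatives. The members, the 6 pathway and 13 marker lists and the comparisons were chosen with earlier results of these data known. Up to 4 called genes of a list and comparison were named, those of largest change, and some were left out for length. Of the listed genes, 3 had no row under their symbol.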

Additional observations from a re-analysis of the deposited data

How the results depend on the processing

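The number of members called was recomputed under each alternative. It moved by over 1.5 times in 4 of the 13 comparisons. For bryostatin added to IL-4 (2 called) it was 4 with DESeq2, 5 with only the compared groups in the fit, 4 with all 27 libraries in 1 fit, and 1 to 1 on leaving out each library. For IFN-gamma in the presence of LPS and bryostatin (3 called) it was 1 with all 27 libraries in 1 fit, and 1 to 2 on leaving out each library. With only the compared groups in the fit it was 1 for bryostatin alone (2 called) and 0 for IL-4 (1 called). The cause was not tested. Each such fit rests on 6 libraries, and it called fewer members in these 2 comparisons but more for bryostatin added to IL-4. All 26 called member results kept their sign in every alternative run. DESeq2 size factors in edgeR changed 0 of the 73 calls. DESeq2 gave no adjusted p for Trem3 in 2 comparisons. Over all genes, the number called moved more. It was 1108 for bryostatin added to LPS, 2148 without both untreated libraries labelled replicate 1, 3354 with only the compared groups and 588 to 689 on leaving out 1 library. For bryostatin added to LPS and IFN-gamma it was 543, 879 with DESeq2, 1380 without those untreated libraries and as low as 242 without 1 library. For the difference of these effects it was 19, with 4 to 114 under the other settings. It was 565 for bryostatin alone, 1337 with DESeq2, 1548 with all libraries in 1 fit and 9 with only the compared groups. It was 91 for IL-4, 223 with DESeq2, 224 with all libraries in 1 fit and 41 with only the compared groups. For bryostatin added to IL-4 it was 644, and under the same 3 settings 1213, 1325 and 2703, with 1355 without those untreated libraries and as low as 172 without 1 library. For IL-4 added to bryostatin it was 142, 223 with DESeq2, 233 in 1 fit and as low as 68 without 1 library.

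Results that changed sign did so on leaving out 1 library, and none of them was called. Their lowest and highest log2 changes were, for Trem2, -0.064 to 0.083 with bryostatin added to LPS, -0.18 to 0.24 with bryostatin added to LPS and IFN-gamma, -0.2 to 0.22 for the difference of these effects, -0.14 to 0.14 with IFN-gamma added to LPS, -0.17 to 0.22 with IFN-gamma added to LPS and bryostatin, and -0.14 to 0.35 with bryostatin alone. For Cd300a they were -0.19 to 0.16 with bryostatin added to LPS and IFN-gamma, -0.13 to 0.32 with IFN-gamma added to LPS and bryostatin, and -0.36 to 0.032 with IL-4. For Tyrobp they were -0.19 to 0.08 for the difference of bryostatin's effects with and without IFN-gamma and -0.14 to 0.33 with IL-4 added to bryostatin. For Trem1 they were -0.071 to 0.18 with bryostatin added to LPS and -0.24 to 0.066 with IL-4 added to bryostatin, and for Trem3 -0.46 to 0.96 with LPS and IFN-gamma against untreated glia. Depth limits Trem3 above all, with 6 to 55 counts per group.

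Replicate numbers did not pair the libraries: deviations from the group means of same-numbered libraries had a median correlation of 0.0033 in experiment 1 and 0.044 in experiment 2, with pairs from -0.5 to 0.53. With the replicate number as a block, 72 of 73 member results kept their call, and Cd300a with bryostatin added to IL-4 gained one (0.9, adjusted p = 0.034), so that 3 members were called there.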
